A study of Sus scrofa with 23 samples.

Results

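Kidney cortex RNA of 13 earlier-numbered newborn piglets was compared by genotype label, out of 23 piglets in the series. The 13 comprised 6 CF piglets (CF1 to CF6, CFTR-/-) and 7 non-CF piglets, of which 3 were heterozygous (HET13, HET14 and HET15, CFTR+/-) and 4 were wild type (WT12, WT16, WT17 and WT18, CFTR+/+). All were newborn, and each library came from 1 piglet. The 13 were chosen by measured values, their positions on axis 2 of a multidimensional scaling over all genes of the 23 libraries, where the libraries fell on either side of an empty stretch that followed the pig numbers within each genotype. HET14 was the last library inside it at -0.0189 and CF11 the first outside at 0.3014, a gap of 0.3203 against 0.2346 for the next widest. The labels name no batch, litter, day or sex for these numbers, so the 2 sets are called earlier-numbered and later-numbered pigs here and nothing more.

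CFTR is an apical anion channel opened by cAMP-dependent phosphorylation. In the kidney it is found along the tubule, including the proximal tubule, where filtered sugars, amino acids and small proteins are taken back up. The cortex of a newborn pig still holds dividing and differentiating cells beside mature tubules, so a bulk sample mixes many cell types. In such bulk tissue, fewer cells of a type and less RNA per cell cannot be told apart.

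Depth ranged from 36437733 to 49840986 estimated counts per library, with medians of 44427034 in CF and 44639997 in non-CF. Levels are given as CPM, estimated counts scaled to a common library size after adjusting for library composition. An amount of 3 counts, given as a floor and not used as a filter, corresponded to 0.0602 to 0.0823 CPM of the unadjusted library totals. Proximal tubule markers summed to between 12073 and 20959 CPM in the 13 libraries, podocyte markers to between 1531.9 and 2285.8 CPM and thick ascending limb markers to between 1146.3 and 1895 CPM. Adrenal cortex markers summed to at most 13.26 CPM. When the 13 libraries were scaled alone, their first axis separated those with the Y-linked gene EIF1AY over 15 CPM (CF1, CF4, CF5, HET13, HET15, WT12 and WT17) from the other 6, which were at or below 0.0782 CPM. Both genotype groups held both kinds. Of 41 genes annotated to chromosome Y, 2 reached an unadjusted p under 0.05 between CF and non-CF, where 9.31% of all genes did. CF1 lay farthest out on that axis, at 1.386.

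**Figure D1:**
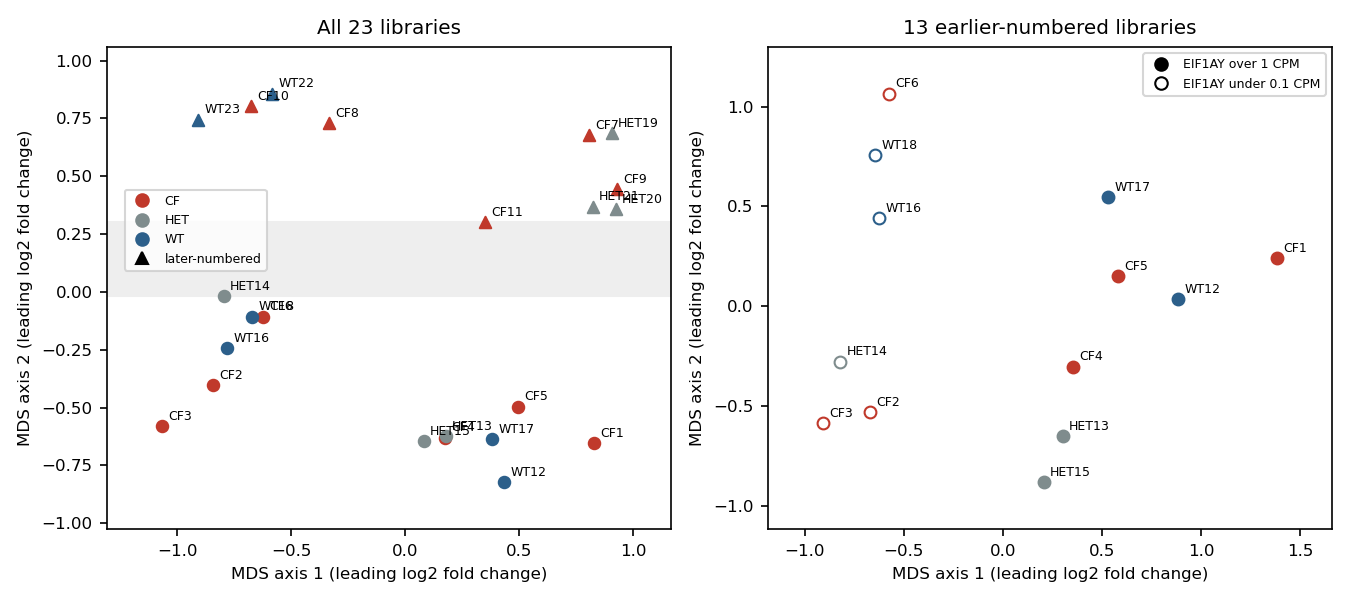
Multidimensional scaling of all 23 libraries (left, the shaded band marks the empty stretch on axis 2) and of the 13 earlier-numbered libraries (right), in leading log2 fold change, coloured by genotype label. The earlier-numbered libraries end at -0.0189 on axis 2 and the later-numbered begin at 0.3014. On the right, filled and open points (EIF1AY present or absent) separate along axis 1.

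CFTR RNA was highest in the libraries labelled CF and lowest in those labelled WT. The libraries labelled CF held 22.8, 20.9, 21, 12.5, 21.1 and 21.1 CPM in the order CF1 to CF6, those labelled HET held 9.47, 12.2 and 17.7 CPM, and those labelled WT held 2.29, 3.66, 1.82 and 2.25 CPM. Every CF and HET library stood above every WT library, and CF4 lay among the HET libraries. Over the 13 libraries the difference was 1.49 ± 0.46 on the log2 scale (SE) with an adjusted p of 0.308 (edgeR's quasi-likelihood test, Benjamini-Hochberg adjustment). Against WT alone it was 2.98 ± 0.24 (adjusted p = 6.34e-05) for CF and 2.39 ± 0.26 (adjusted p = 0.00291) for HET. The files count transcripts of the gene as annotated and cannot show which allele they came from, so every direction below refers to the libraries as labelled.

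The first question was which genes differed between CF and non-CF in these 13 pigs. Of 21038 genes tested, 0 passed an adjusted p of 0.05 and 12 (0.057%) passed 0.10, with a smallest adjusted p of 0.0852. An unadjusted p under 0.05 was reached by 1958 genes (9.31%), of which 1266 were higher in CF (6.02%) and 692 lower (3.29%). In 122 genes (0.58%) all 6 CF libraries were above all 7 non-CF libraries, and in 11 (0.0523%) all were below. The median gene did not move (-0.00 log2), and 49.9% of genes lay above 0. Because no gene passed the adjusted threshold, levels below are described as higher or lower with their unadjusted p. The call depended on the tool, since DESeq2 called 150 genes where limma-voom called 0 (1846 at an unadjusted p under 0.05), and on CF1, without which edgeR called 12 genes and 309 genes separated the groups (243 without WT17).

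The 12 genes with the smallest p among those higher in CF differed by little and with little spread. All 12 kept the groups apart, and their log2 differences lay between 0.33 and 0.58. TMEM106B, a lysosomal membrane protein, ranged from 135 to 190 CPM in CF (median 177) and from 106 to 126 CPM in non-CF (median 118). The groups did not overlap, and CF1 was the lowest CF library. The difference was 0.54 ± 0.08 log2 (p = 6.52e-06, adjusted p = 0.0852, exact permutation p = 0.000583, the smallest that 1716 arrangements allow). LRRC58 followed, at 125 to 148 CPM in CF (median 142) against 95.1 to 117 CPM (median 102), a difference of 0.44 ± 0.07. TWSG1, which binds bone morphogenetic proteins outside the cell, was at 92.4 to 104 CPM against 68.1 to 81.3 CPM and differed by 0.38 ± 0.06.

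The other 9 genes had separations of the same kind. NDFIP2, an adaptor that recruits ubiquitin ligases of the NEDD4 family, was at 60.7 to 66.6 CPM in CF and 44.9 to 52.4 CPM in non-CF. MARCH5, a mitochondrial ubiquitin ligase, differed by 0.39 ± 0.07, and the ring finger proteins ZNRF2 and RNF11 by 0.51 ± 0.09 and 0.33 ± 0.06. SLC25A36, a mitochondrial pyrimidine nucleotide carrier, was at 148 to 188 CPM in CF against 102 to 127 CPM. CHIC1 (0.58 ± 0.10), MANEA (0.40 ± 0.07), C2H5orf24 (0.40 ± 0.07) and LOC110257452 (0.34 ± 0.06) complete the list.

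Among the genes lower in CF, the neutral amino acid transporter of the proximal tubule brush border, SLC6A19, had the smallest p. It was at 9.81 to 20.4 CPM in CF (median 15.4) and 20.9 to 50.8 CPM in non-CF (median 33.4). The highest CF library, CF6, fell just under the lowest non-CF library, HET14. The difference was -1.18 ± 0.21 log2 (p = 3.91e-05, adjusted p = 0.0852, exact permutation p = 0.00233). In the later-numbered pigs the same gene differed by 0.02 (p = 0.935), and the difference between the 2 sets was 1.20 ± 0.36 with an adjusted p of 0.21.

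PAPPA2, a protease that frees insulin-like growth factors from their binding proteins, was at 15.3 to 39 CPM in CF (median 22.5) and 24.8 to 84.5 CPM in non-CF (median 67.8). The ranges overlapped only through HET libraries. It differed by -1.25 ± 0.27 (p = 0.000298). NOS1, the neuronal nitric oxide synthase, which in kidney is known from the macula densa, differed by -0.82 ± 0.19. APLNR, the apelin receptor, differed by -0.75 ± 0.17, and MEST, an imprinted gene expressed in growing tissue, by -0.73 ± 0.18. The bile acid receptor GPBAR1 was low throughout, at 0.338 to 0.817 CPM in CF and 0.684 to 1.98 CPM in non-CF, and differed by -1.21 ± 0.28. CCDC142 (-0.43 ± 0.10), PIGZ (-0.54 ± 0.13) and LOC100523131 (-0.38 ± 0.09) separated the groups completely, while LOC110261675 (-0.79 ± 0.15), LOC102167570 (-0.77 ± 0.17) and LOC110256816 (-0.70 ± 0.16) did not.

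Transport genes of the tubule were described next. SLC2A2, which encodes GLUT2, the basolateral exit path for glucose in the proximal tubule, was at 1503 to 2466 CPM in CF (median 1946) and 457 to 1530 CPM in non-CF (median 979). Only WT12 reached into the CF range. The difference was 0.99 ± 0.21 (p = 0.000305, adjusted p = 0.144, exact permutation p = 0.00291). Of 27 proximal tubule markers tested SLC2A2 alone had a p under 0.05 (3.7%, against 9.31% of all genes). At that p 3 were higher without CF3, HET14 or HET15, and 2 lower without CF1. The list median was 0.08 against -0.00 for all genes, 0.04 without CF1, 0.03 without WT12, -0.05 without both and 0.13 without HET15. Against WT libraries alone 20 of the 27 were higher, 4 with a p under 0.05, and the median was 0.20. In that fit 1405 of 21193 genes were higher at that p. The receptor CUBN, which takes up filtered protein, differed by 0.25 ± 0.13 (p = 0.071) and its adaptor DAB2 by 0.26 ± 0.14 (p = 0.082).

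Of 16 luminal amino acid and peptide transporters, SLC6A19 was the single gene with a p under 0.05, and 9 lay above 0. Of 28 basolateral and general amino acid transporters, 5 were higher and 1 lower at that p, against 6.02% and 3.29% of all genes. The 5 became 3 without HET13, WT17 or WT18, and the 1 became 2 without CF1, CF6 or HET13. SLC38A2, a sodium-coupled carrier of small neutral amino acids, was higher by 0.29 ± 0.10 (p = 0.00879), SLC16A10, a carrier of aromatic amino acids, by 0.28 ± 0.09 and SLC6A15 by 0.57 ± 0.19, whereas SLC1A4 was lower (-0.29 ± 0.08). The study's other experiments measured the proteins of SLC1A1 and SLC38A4. SLC1A1, a glutamate and aspartate carrier, was at 48.2 to 110 CPM in CF and 50.8 to 89.1 CPM in non-CF, with a difference of 0.05 ± 0.17 (p = 0.794). SLC38A4 was at 1.38 to 4.35 CPM and 2.18 to 4.33 CPM, with a difference of -0.10 ± 0.23 (p = 0.681). Both ranges overlapped almost fully. Of 19 chloride channels and anion exchangers, CFTR and CLCN3, an endosomal exchanger, were the 2 with a p under 0.05, and CLCN3 differed by 0.25 ± 0.09. The sodium chloride cotransporter SLC12A3 of the distal convoluted tubule differed by -0.58 ± 0.27 (p = 0.0469), but by 0.03 with the HET libraries alone as control.

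The gene lists below were counted against the 9.31% of all genes with an unadjusted p under 0.05 and a median of all genes of -0.00 log2. In the cell cycle list 30 of 34 genes were lower in CF, 13 of them with a p under 0.05, and the median was -0.23. The helicase subunits MCM4 and MCM6 differed by -0.54 ± 0.18 and -0.54 ± 0.22, whereas CDKN1B, an inhibitor of cell division, was the 1 member higher at that p, by 0.34 ± 0.11. MCM4 was at 31.6 to 68.2 CPM in CF (median 41) and 40.5 to 81.6 CPM in non-CF (median 73.2), and 4 of the 6 CF libraries stood within the non-CF range. Leaving out CF5 reduced the count of cell cycle genes lower at that p from 13 to 4, with a median of -0.23, and leaving out WT17 reduced it to 3, with a median of -0.14.

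In the cholesterol synthesis list 20 of 21 genes were lower in CF, 4 with a p under 0.05, and the median was -0.15. Lanosterol synthase LSS was at 63.5 to 126 CPM in CF and 73.1 to 154 CPM in non-CF and differed by -0.55 ± 0.21 (p = 0.0189), and DHCR7, the last enzyme of the path, by -0.50 ± 0.19. Summed over the list, CF1 (1609.6 CPM) was the highest of the 13 libraries and HET15 (816.44 CPM) was close to the lowest. Without CF1, 10 cholesterol synthesis genes had a p under 0.05, all lower, and the median was -0.35. The 4 fell to 2 without CF3, CF5, CF6, WT16 or WT17, and 5 of the 21 lay above 0 without CF6, WT16 or WT17. Respiratory chain subunits were also mostly lower, in 43 of 48 genes, with a median of -0.10 and 0 with a p under 0.05. Without HET14, the highest library for 33 of the 48, 34 were lower and the median was -0.04. Without CF2, CF4 or WT12, 1 of the 48 was higher, and the median was -0.15 without CF4. Cytosolic ribosomal proteins were higher in 70 of 75 genes, with a median of 0.09 and 2 at that p (0 to 6 with 1 library left out, 0 without CF2, CF5, CF6, WT12, WT16 or WT18 and 6 without HET15). Without WT12 the latter were higher in 45 of 75, with a median of 0.03.

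Of the 40 lists, TGF-beta feedback and targets had the largest share of genes higher at an unadjusted p under 0.05 with all 13 libraries. Without WT12 the share was larger for immediate early genes (14 of 21), and without CF1 for interferon-stimulated genes (8 of 20). Of the 25 TGF-beta feedback and targets, 21 were higher in CF, 9 with a p under 0.05 and 0 lower, and the median was 0.16. SKIL, a corepressor that TGF-beta signalling induces and that acts back on it, was at 86.3 to 161 CPM in CF (median 98.1) and 61.2 to 85.4 CPM in non-CF (median 71.6). The groups did not overlap, although CF2 and WT12 were less than 1 CPM apart. The difference was 0.60 ± 0.14 (p = 0.00068, adjusted p = 0.165). The receptor TGFBR1 differed by 0.31 ± 0.07 and its transducer SMAD4 by 0.26 ± 0.07, and KLF10, an early TGF-beta-induced factor, by 0.49 ± 0.11. CF1 was the highest library for 14 of the 25 genes. Without it, 8 TGF-beta feedback and targets had such a p, all 8 among the 9, with a median of 0.07.

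In the FoxO, insulin and IGF signalling list 21 of 27 genes were higher, 6 with a p under 0.05 (median 0.16). KLHL24 separated the groups, at 197 to 280 CPM in CF against 140 to 180 CPM, and FOXO1 differed by 0.27 ± 0.10. In the cAMP signalling and CREB list 16 of 22 were higher, 5 with a p under 0.05 (median 0.08). CREB1, the transcription factor that cAMP-dependent kinase phosphorylates, was at 77.8 to 113 CPM in CF and 63.5 to 78 CPM in non-CF, and its relative ATF1 separated the groups at 29.2 to 34.8 against 24.7 to 29.1 CPM. Among splicing regulators 33 of 44 were higher, 9 with a p under 0.05 (median 0.08), among them PTBP3 (0.45 ± 0.11) and MBNL1 (0.28 ± 0.10). Leaving out CF5 reduced these 9 splicing regulators to 3. CF1 was the highest library for 13 of the 27 FoxO, insulin and IGF signalling genes, whose median was 0.10 without it. Without CF1 the cAMP signalling and CREB list lay above 0 in 10 of 22 genes, with a median of -0.03, and 5 had such a p, 4 of them shared with the 5 above.

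**Figure D2:**
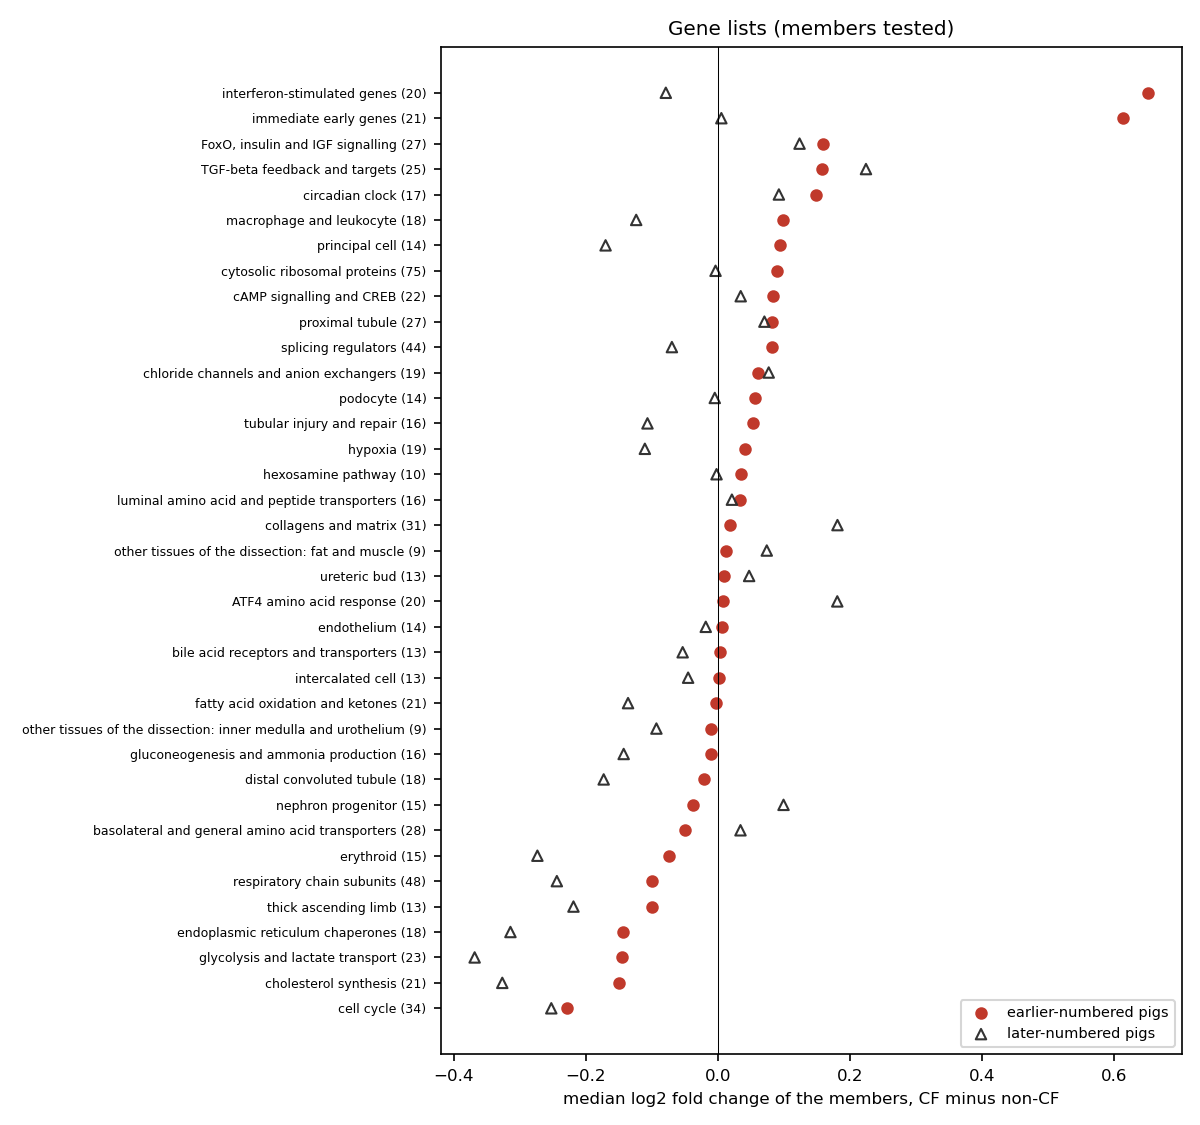
Median log2 difference, CF minus non-CF, of gene lists with at least 9 genes tested, the renin-angiotensin list (9 tested) left out. Earlier-numbered pigs are filled circles and later-numbered pigs open triangles, with the number of genes tested in brackets. The cell cycle list is the lowest in the earlier-numbered pigs at -0.23, and the interferon-stimulated and immediate early lists, at 0.65 and 0.61, have later-numbered medians near 0.

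The largest list medians rested on single libraries. Interferon-stimulated genes summed to 1459.5 CPM in CF3 and to between 455.66 and 612.86 CPM in the other 12 libraries, and CF3 was the highest library for 17 of 20 genes. RSAD2, an antiviral enzyme, was at 30.7 CPM in CF3 and at most 0.715 CPM in the other CF and 2.45 CPM in the non-CF libraries, and IFIT1, which binds foreign RNA, was at 41.7 CPM against at most 6.22 CPM. With CF3 the median of the interferon-stimulated genes was 0.65, with 19 of 20 higher. Without it the median was -0.36 and 5 of 20 were higher. Immediate early genes summed to 2743.9 CPM in CF1 and 1226.5 CPM in WT12, and to between 358.3 and 571.9 CPM in the other 11. FOS, named after its values were seen, was at 408 CPM in CF1, 158 CPM in WT12 and at most 6.45 CPM elsewhere. The median of the immediate early genes was 0.61 with all libraries, -0.27 without CF1, 1.19 without WT12 and 0.13 without both. The part of these libraries in other results was examined only by leaving them out.

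**Figure D3:**
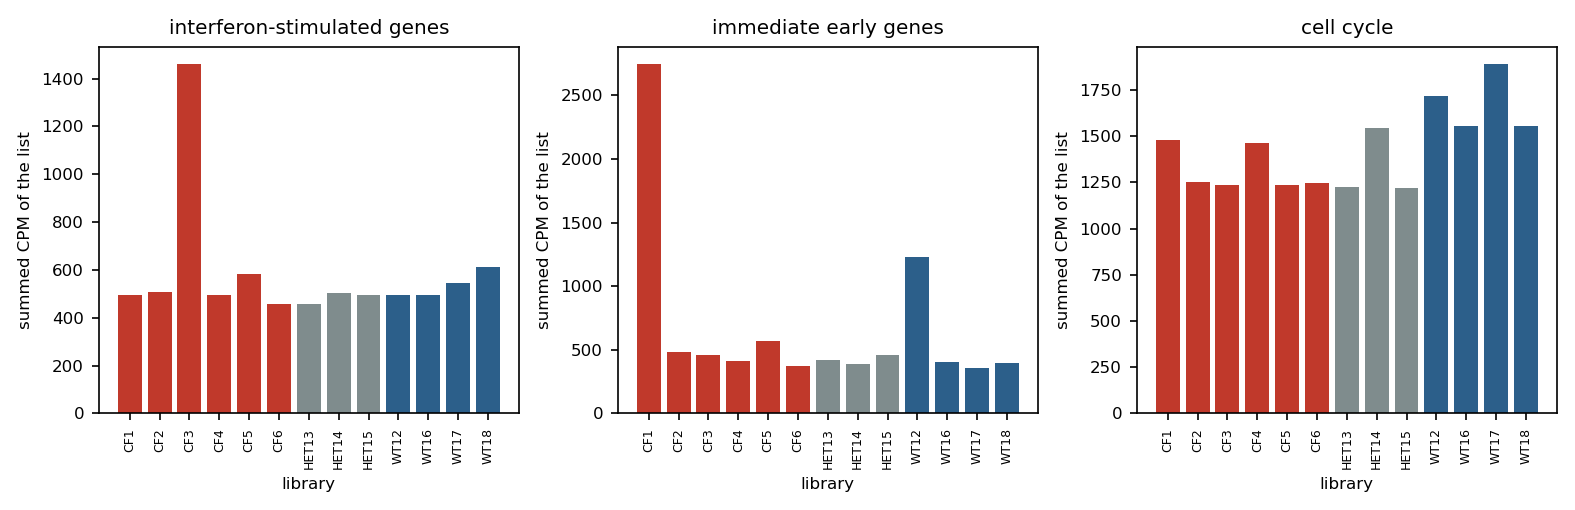
Summed CPM of the interferon-stimulated, immediate early and cell cycle genes in each of the 13 libraries, as bars from 0 (red CF, grey HET, blue WT). CF3 stands alone for interferon-stimulated genes, CF1 and WT12 stand out for immediate early genes, and the 4 WT libraries (1552.7 to 1887.4 CPM) are the highest for the cell cycle.

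Markers of cells other than tubule were counted in the same way. Of 18 macrophage and leukocyte genes, 3 (16.7%, against 9.31% of all genes) had a p under 0.05, all higher, among them the scavenger receptor CD163 (0.64 ± 0.24) and the endotoxin coreceptor CD14 (0.49 ± 0.14), with a list median of 0.10 and summed levels of 314.05 to 473.47 CPM in CF and 295.21 to 372.59 CPM in non-CF. Without CF1, the highest library for 8 of these 18 genes, the median was -0.01, without WT17 5 genes were higher at that p, and without CF5 CD163 differed by 0.41. With WT libraries alone as control 9 of the 18 were higher, 1 higher and 1 lower at that p, with a median of 0.03, and with HET alone 13 were higher, with a median of 0.21. Of 14 endothelial genes 1 (TEK, 0.25 ± 0.10) and of 31 collagens and matrix genes 1 (TIMP3, 0.44 ± 0.15) had a p under 0.05. The collagens and matrix genes lay above 0 in 16 of 31 with all libraries and in 7, with 4 lower at that p, without CF1. Erythroid genes summed to 531.2 CPM in CF1 against 188.53 to 365.79 CPM in the others. Of 16 tubular injury and repair genes 8 were above 0, with 2 higher and 1 lower at that p and a median of 0.05. This median was -0.02 without CF1 and 0.11 without HET13. CD44 was higher by 0.63 ± 0.19 (0.35 with HET alone as control), whereas SPP1, which encodes osteopontin, reached 3010 CPM in CF5 and at most 1120 CPM elsewhere. The fibrinogen genes FGB and FGG, chosen after their values were seen, were also highest in CF5, at 326 and 150 CPM against at most 29.6 and 15.3 CPM. The part of these markers in the other results was not tested.

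The 3 genotype labels were then fitted separately, over 21627 genes. CF and WT differed in 7 genes (0.0324%), HET and WT in 17 (0.0786%) and CF and HET in 0 (14 by DESeq2), each at an adjusted p of 0.05 by edgeR, and at an unadjusted p under 0.05 in 2799 (12.9%), 1932 (8.93%) and 1052 (4.86%) genes. These contrasts share libraries, so agreement between them is built in and their values are given side by side. The 7 genes of CF against WT were CFTR, MEST, PAPPA2, TFRC, NOS1, SLC6A19 and LRRC58, and their number rose to 110 without CF1, 79 without CF4 and 29 without CF6, and fell to between 2 and 4 without CF2, CF3, WT12, WT17 or WT18. Between CF and HET, 5 genes were called without CF3 and 6 without HET13. MEST was at 74.9 to 103 CPM in CF, at 96.8, 97.2 and 109 CPM in HET, and at 228, 147, 154 and 166 CPM in WT. CF and HET overlapped and both stayed below every WT library. The difference of CF from WT was -1.02 ± 0.12 (adjusted p = 0.00639), that of HET from WT was -0.78 ± 0.15 (adjusted p = 0.095) and that of CF from HET was -0.24 (p = 0.098).

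TFRC, the transferrin receptor, likewise stood apart in WT. It was at 44.2 to 68.1 CPM in CF and 43.1 to 52.5 CPM in HET against 83.4 to 122 CPM in WT, with differences from WT of -0.89 ± 0.13 (adjusted p = 0.0201) and -1.09 ± 0.16 (adjusted p = 0.0221). NOS1 differed between CF and WT by -1.08 ± 0.16 (adjusted p = 0.0201), with HET at 22.8 to 25.2 CPM inside the CF range of 15 to 26.7 CPM, and WT at 29.5 to 44.7 CPM. PAPPA2 differed by -1.63 ± 0.22 (adjusted p = 0.0142), with WT at 67.8 to 84.5 CPM and HET at 24.8 to 47.4 CPM. The tubulin TUBB4A, named after its values were seen, was at 1.54 to 1.74 CPM in WT and at most 0.894 CPM elsewhere. In the later-numbered pigs the 2 WT libraries held 104 and 113 CPM of MEST and 19.8 and 22.1 CPM of NOS1, within the range of the HET and CF libraries there.

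HMOX1, the inducible heme oxygenase, was among the 17 genes called between HET and WT. It was at 518, 857 and 561 CPM in HET, at 30.3, 55.5, 44.4 and 42 CPM in WT, and at 62.9 to 542 CPM in CF (median 246). No WT library reached a HET library, and the CF libraries were spread between them, with CF2 inside the HET range. HET differed from WT by 3.91 ± 0.55 (adjusted p = 0.0221), CF from WT by 2.56 ± 0.48 (adjusted p = 0.0607) and CF from HET by -1.35 (p = 0.0102). SQSTM1, an autophagy receptor that binds KEAP1, was at 403 to 535 CPM in HET and 155 to 218 CPM in WT, a difference of 1.30 ± 0.19 (adjusted p = 0.0221). GCLC and GCLM, the subunits of the enzyme that limits glutathione synthesis, differed between HET and WT by 2.15 ± 0.36 and 1.27 ± 0.21 (adjusted p = 0.0358 for both).

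Of the genes called between HET and WT, the uncharacterised LOC110256905 had the next smallest p after CFTR, at 17.1 to 28.5 CPM in HET, 1.28 to 2.96 CPM in WT and 3.58 to 12.1 CPM in CF. A list of 21 NRF2 target genes was written after these values had been seen and so describes them only, and SQSTM1, GCLC, GCLM, SRXN1 and NFE2L2 were likewise named afterwards. HET was above WT in 20 of the 21, 13 with an unadjusted p under 0.05 and a median of 0.65, CF was above WT in 17, 11 at that p and a median of 0.36, and CF was above HET in 1, with 7 lower at that p and a median of -0.27. Over all genes 4.43%, 7.02% and 1.76% were higher, higher and lower in these contrasts at that p. Without HET14, CF was above HET in 7 of the 21, with 2 lower at that p, and without CF2 there were 10 lower. The median of CF against HET was -0.11 without HET14 and -0.42 without HET15. SRXN1, which restores oxidised peroxiredoxins, was at 196 to 244 CPM in HET, 19.7 to 42.9 CPM in WT and 24.3 to 309 CPM in CF. NFE2L2, which encodes NRF2 itself, was at 233 to 235 CPM in HET and 192 to 218 CPM in WT. In the later-numbered pigs HMOX1 had another order, at 332 and 473 CPM in WT, 82.9 to 308 CPM in HET and 338 to 771 CPM in CF. The number of HET libraries was 3, and leaving out single libraries moved the count of 17 genes to between 1 and 25, with 1 to 7 without CF4, CF5, HET14, HET15 or any WT library.

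Transcripts of plasma proteins made in liver were also among the HET against WT genes. Albumin, ALB, was at 6.41 CPM in HET14 and 9.28 CPM in HET15, and at most 1.54 CPM in the other 11 libraries. AHSG (10.4 and 13.2 CPM, at most 2.63 elsewhere) and the urea cycle enzyme CPS1 (6.57 and 4.94 CPM, at most 0.657 elsewhere) were high in the same libraries, and HET13 was not. Of 19 such genes, a list written, like the 3 genes just named, after the values were seen, 18 were above 0 in HET against WT (9 with an unadjusted p under 0.05, median 0.79) and 18 in CF against WT (5 at that p, median 0.53), while 4 were above 0 in CF against HET (8 lower at that p, median -0.53). Over all genes 4.43% were higher at that p in HET against WT, 7.02% in CF against WT, and 1.76% lower in CF against HET. In CF against WT the 5 became 1 without WT17, 2 without WT12, 3 without CF3 or WT16, 8 without HET13 and 9 without CF6, and the median was 0.30 without CF1. In HET against WT the median was 0.42 without HET15 and 1.31 without WT18, and in CF against HET it was -0.24 without HET15 and -0.33 without CF6. Their summed level was highest in CF5 (656.9 CPM, most of it fibrinogen) and was 166.7 to 356.4 CPM in the other 12 libraries. The part of these transcripts in the HET values was not tested.

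**Figure D4:**
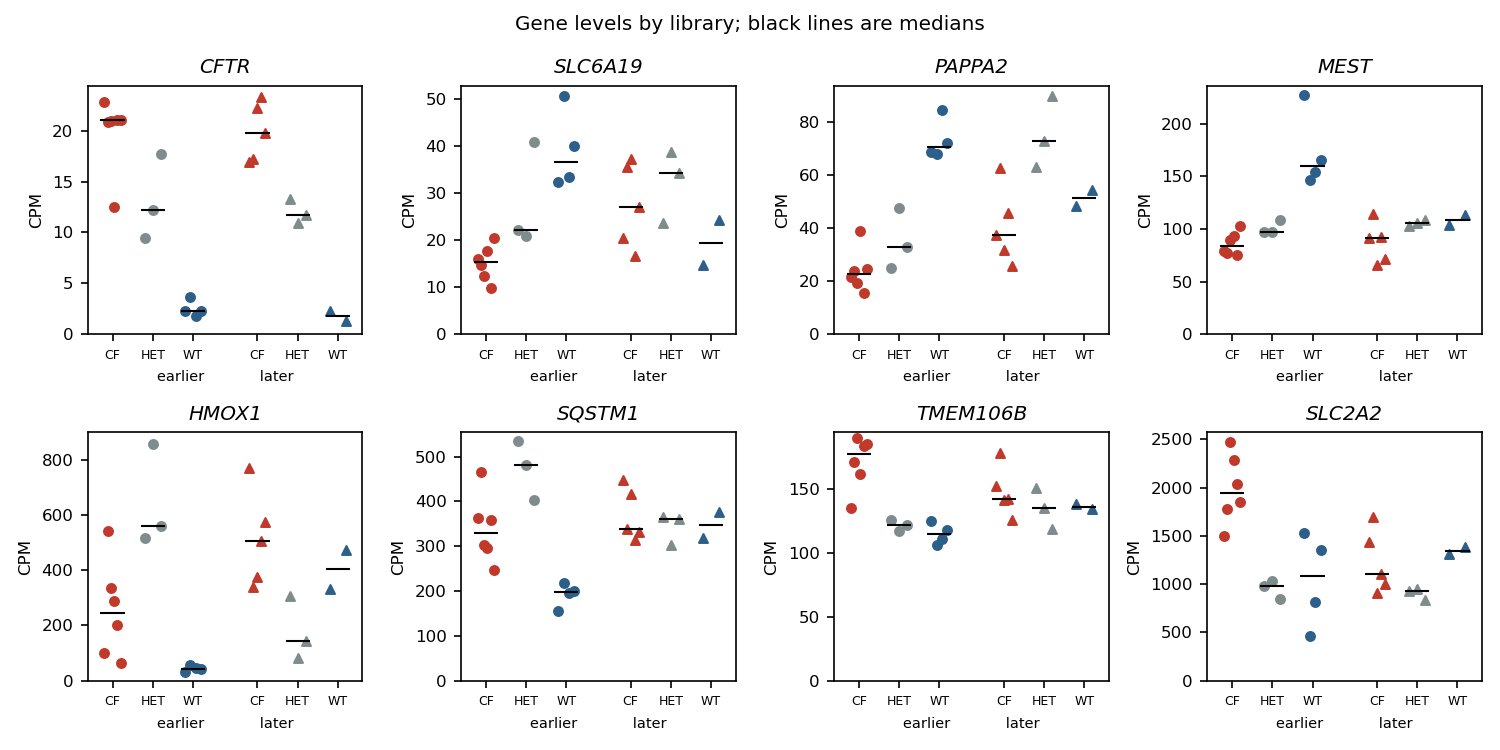
CPM of 8 genes in every library, by label, in earlier-numbered (circles) and later-numbered pigs (triangles), with medians as black lines and axes from 0. CFTR is lowest in WT in both sets, whereas PAPPA2 and MEST stand out as high in WT, and HMOX1 and SQSTM1 as low in WT, only among the earlier-numbered libraries, where SLC6A19 is lowest in CF.

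The gene lists were read in the 3 contrasts side by side. Over all genes 7.02% were higher and 5.92% lower at an unadjusted p under 0.05 in CF against WT, 4.43% and 4.5% in HET against WT and 3.1% and 1.76% in CF against HET, and between 48.6% and 49.2% lay above 0. Cell cycle genes were lower than in WT at an unadjusted p under 0.05 in 24 of 34 genes in CF (median -0.40) and in 13 in HET (median -0.38), and between CF and HET in 0 (median -0.03). Cholesterol synthesis genes were below WT in all 21 genes in both CF and HET, with medians of -0.39 and -0.50 and 9 and 13 genes at that p, and CF against HET had a median of 0.09. Cytosolic ribosomal proteins lay above WT in 72 of 75 genes in CF and 74 in HET (medians 0.19 and 0.25), and CF lay above HET in 11. The ribosomal protein RPL26 was at 229 to 319 CPM in WT, 311 to 339 CPM in HET and 295 to 377 CPM in CF. Proximal tubule markers lay above 0 in 20 of 27 genes in CF against WT (4 higher at that p, median 0.19), in 17 in HET against WT (7 higher, median 0.08) and in 14 in CF against HET (median 0.01). The 7 became 2 without WT12 (median 0.01) and 3 without HET14 or HET15, and the median of CF against WT was 0.09 without CF1 or WT12. Without HET13 the median of HET against WT was 0.20, and CF lay above HET in 7 of the 27 markers (median -0.09). Without CF1 that number was 8 (median -0.07). All these contrasts with WT share 4 libraries. Without WT17 the cell cycle counts were 13 in CF and 6 in HET, and the latter was 3 without HET13, 4 without HET15, 8 without WT12 and 24 without HET14. The cholesterol synthesis counts ranged from 6 (without WT16 or WT17) to 18 (without CF1) in CF and from 6 (without HET13 or HET15) to 17 (without CF1) in HET. Without HET14 the medians of CF against HET were 0.11 for the cell cycle and 0.29 for cholesterol synthesis, and the latter was -0.07 without CF1. Without CF3, CF lay above HET in 33 of the 75 ribosomal proteins.

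Signalling, respiratory and splicing lists were read in the same way. Of the 25 TGF-beta feedback and targets, CF was above WT in 19 genes and above HET in 23 (medians 0.17 and 0.16), and HET was above WT in 11 (median -0.03). Without CF1 these numbers were 14 (median 0.09) against WT and 17 (median 0.15) against HET. KLF10 was at 51 to 75.6 CPM in CF, 39.6 to 53.2 CPM in HET and 37.1 to 48.2 CPM in WT. Respiratory chain subunits were above 0 in 5 of 48 genes both against WT and against HET (medians -0.10 and -0.11), while HET was above WT in 26 (median 0.02), and 0 had a p under 0.05 in any of the 3. Without HET14, CF was above HET in 33 of the 48 and HET above WT in 5, and CF was above WT in 15 without CF6 or WT17. Splicing regulators were above HET in 38 of 44 genes and above WT in 24, with 5 genes higher at that p in each. Against WT the 5 became 0 without WT16 and 8 without CF1, and against HET 2 without HET13, 3 without HET15, 8 without CF3 and 10 without CF2.

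Base composition moved with the CF difference in these pigs. Genes were cut into eighths by the GC content of their longest annotated transcript. In the eighth of lowest GC (median 38.1%) the median difference was 0.11 log2, 21.4% of genes were higher in CF and 0.875% lower at an unadjusted p under 0.05, and in the eighth of highest GC (median 64.5%) the median was -0.07, with 1.03% higher and 6.46% lower. The 1266 higher genes had a median GC of 40.8% and the 692 lower genes one of 55.9%, against 50.05% over all genes, and the 12 higher genes named above one of 37.2%. In the later-numbered pigs the same eighths ran from 0.00 to 0.06, the other way. Within the CF group the libraries were not alike: the lowest-GC eighth stood 0.217 above the gene means in CF6 and 0.133 in CF5, but -0.199 in CF1, below every other library.

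With GC content and transcript length smoothed out of each library, a correction chosen after seeing the data, edgeR again called 0 genes at the adjusted threshold and 1704 at an unadjusted p under 0.05. Of the 1266 higher genes 726 kept an unadjusted p under 0.05, as did 493 of the 692 lower genes and 91 of the 122 that had separated the groups upwards. Their signs held in 1265 of the 1266 and in all 692, with medians going from 0.27 to 0.20 and from -0.40 to -0.37. All 24 genes named first, 12 in each direction, kept such a p. The median of the 12 higher genes went from 0.40 to 0.30 and that of the 12 lower from -0.76 to -0.71, with TMEM106B at 0.35 and MANEA at 0.20. The smallest adjusted p was then 0.266, so none of the 12 genes under 0.10 stayed there. TGF-beta feedback and targets then held 8 genes at that p with a median of 0.17, the cell cycle list 13 lower with a median of -0.22, cytosolic ribosomal proteins 13 (74 of 75 above 0), splicing regulators 3 with a median of 0.04 and cAMP signalling and CREB 1 with a median of 0.07. The cause of the relation with base composition was not tested.

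**Figure D5:**
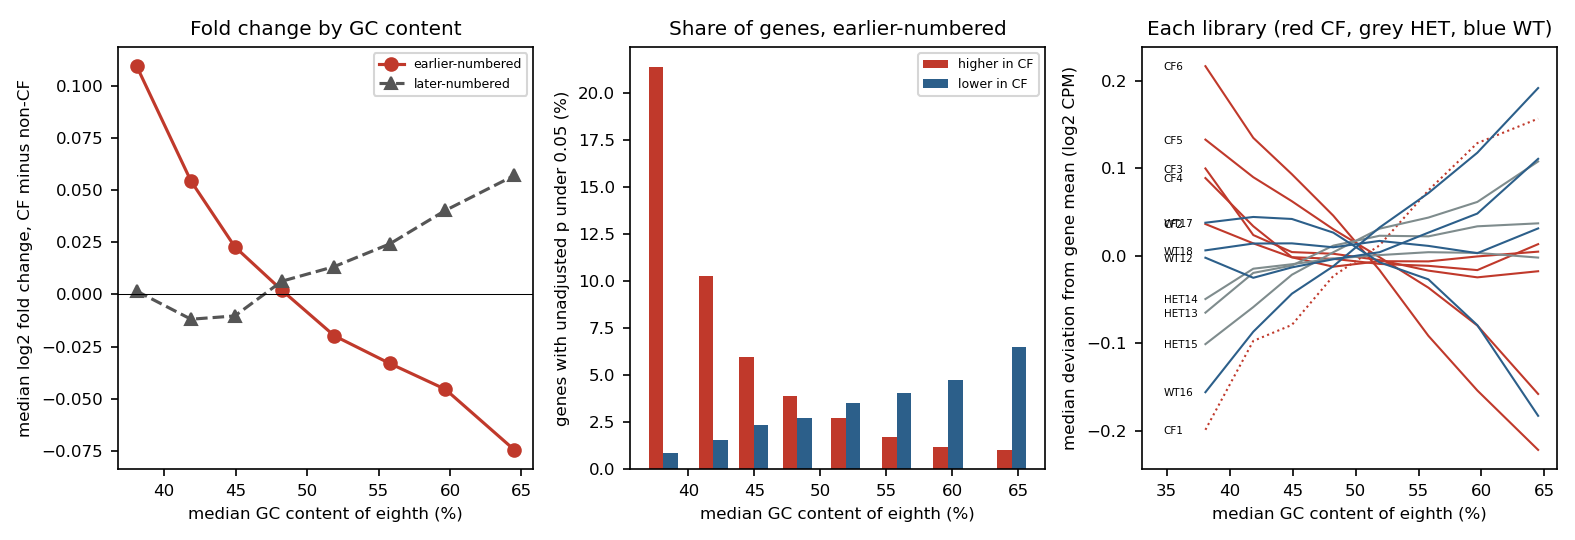
Left, median log2 difference (CF minus non-CF) by eighth of transcript GC content, in earlier-numbered (0.11 down to -0.07) and later-numbered pigs. Middle, percent of genes higher or lower in CF at an unadjusted p under 0.05 in the earlier-numbered pigs. Right, median deviation from the gene mean in each of the 13 libraries (log2 CPM), where CF1, dotted, runs opposite to CF5 and CF6.

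The later-numbered pigs, 5 CF and 5 non-CF, share no library with these 13 and gave a separate reading of the same contrast. They held 473 genes at an adjusted p of 0.05, of 20882 tested (2.27%). Of the 1259 genes higher in the earlier-numbered pigs and tested in both, 809 (64.3%) were also above 0 there, where 52.9% of all genes were, and 168 (13.3%, against 8.51% of all genes) had an unadjusted p under 0.05. Of 687 lower genes 445 (64.8%, against 47.1%) were below 0 and 137 (19.9%, against 8.93%) had such a p. Genes that had separated the groups upwards had the same sign in 95 of 122, with 12 at that p (9.84%), and those that had separated them downwards in 4 of 11 (36.4%), with 2 at that p. In 73 of the 122 and in 10 of the 12 higher genes above, all selected on the earlier-numbered values, the difference between the sets itself had an unadjusted p under 0.05 (10.3% of all genes). Of the 12 lower genes named above 8 had the same sign, 5 at that p (41.7%, against 8.93%), and 5 had such a p for the difference between the sets. Of the 12 higher genes above 11 had the same sign (91.7%), 2 at that p, with later-numbered differences of at most 0.25, the largest in LRRC58 (p = 0.0168) and SLC25A36 (0.23, p = 0.0455).

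In both sets 45 genes met both criteria, an unadjusted p under 0.05 here and an adjusted p of 0.05 in the later-numbered pigs with the same sign. They make up 26 of the 1259 higher and 19 of the 687 lower genes, and 26 of 254 higher and 19 of 218 lower genes called in the later-numbered pigs. Over all genes 6.02% were higher and 3.29% lower at such a p here, 1.22% were higher and 1.05% lower at the adjusted threshold there, and the 45 were 0.217% of the 20731 genes tested in both. Of the 25 TGF-beta feedback and targets 3 were among them, KLF10 (0.49 here, 0.66 later), SKIL (0.60 and 0.68) and SMAD7, an inhibitor of the pathway (0.39 and 1.11). FST, which encodes the activin antagonist follistatin, was also among the 45 (0.91 and 1.5). TIMP3, an inhibitor of matrix proteases, was higher in both (0.44 and 0.64), as was the cholesterol exporter ABCA1 (0.58 and 0.94). GPBAR1 was lower in both, at 0.338 to 0.817 CPM in the earlier and 0.175 to 0.59 CPM in the later CF libraries (differences of -1.21 and -1.77, the latter with an adjusted p of 0.0132). The orphan receptor GPR37 (-0.80 and -0.90), PGM3 of the hexosamine path (-0.32 and -0.56) and SLC12A3 (-0.58 and -0.71) were lower in both. Without CF1 the earlier-numbered differences of SMAD7 and FST were 0.20 and 0.45. With HET alone as control those of ABCA1, GPBAR1, GPR37 and SLC12A3 were 0.19, -0.75, -0.50 and 0.03, and with WT alone 0.95, -1.48, -0.995 and -0.92. SMAD7, FST, ABCA1 and GPR37 were named after their values were seen.

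The difference of the CF effect between the 2 sets was tested over 21582 genes and passed an adjusted p of 0.05 in 4 (0.0185%), with 2220 (10.3%) at an unadjusted p under 0.05. The sets had been chosen on these same expression values, so these p-values describe the 2 sets and are no independent test. The 4 became 72 without CF1, 46 without WT17, 40 without CF6, 19 without CF8 and 10 without HET14, and fell to 1 or 2 without any other earlier-numbered library or without CF9, CF11 or HET20. GPD2, the mitochondrial glycerol phosphate dehydrogenase, was at 23.5 to 36.1 CPM in CF and 23.5 to 28.6 CPM in non-CF here, but at 16.2 to 21.4 CPM in CF and 29.7 to 39.1 CPM in non-CF of the later-numbered pigs. The effect was 0.24 ± 0.10 here and -0.77 ± 0.10 there, a difference of -1.02 ± 0.15 (adjusted p = 0.00737). The monocarboxylate carrier SLC16A7 went from 0.42 ± 0.12 to -0.55 ± 0.08 (difference -0.97, adjusted p = 0.0241). NUDT4, a diphosphoinositol phosphatase, went from 0.36 ± 0.11 to -0.46 ± 0.09, and the matrix protease MMP11 from -0.09 ± 0.12 to 0.83 ± 0.09. The granule proteoglycan SRGN followed, at 0.81 ± 0.17 here and -0.56 there, above the adjusted threshold. NDFIP2 was next, at 0.35 ± 0.06 and -0.08.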

How the data were processed

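Total RNA depleted of ribosomal RNA was sequenced by the authors, and estimated counts and TPM per transcript were made by the authors with kallisto against Sscrofa11.1 and deposited for each library. TPM values were not used here. Between 62.2% and 65.5% of the 77689 transcript values per library were not whole numbers (any remainder above 0). Counts of 77689 transcripts were summed to 26687 gene symbols and rounded. Genes passing edgeR's expression filter were tested (edgeR 4.0.16, TMM, quasi-likelihood, Benjamini-Hochberg adjustment at 0.05), with DESeq2 1.42.0, limma-voom 3.58.1 and exact Mann-Whitney tests as alternatives. In simulated counts for CF against non-CF, edgeR recovered 53% of genes changed 1.5-fold and 90% of those changed 2-fold, over 20890 genes. DESeq2 recovered 70% and 96%, limma-voom 52% and 91%, and the exact Mann-Whitney test 0% of both. Single genes were also given an exact two-sided permutation p, smallest possible value 0.000583. Fold changes are CF minus non-CF on the log2 scale with standard errors (SE). Separate animals were compared, so p-values describe variation among these pigs.

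Genes were named by rule: CFTR, SLC1A1 and SLC38A4, the 12 higher and 12 lower genes of smallest p, the leading 6 of the difference between sets and 3 each of HET and CF against WT, the leading 4 of each of 40 lists, and Y-linked genes. Some genes that this rule picked are not reported here. Others are said to be named afterwards. The members, lists and tests were chosen with earlier results of these data known. GC content and length are those of each symbol's longest listed transcript.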

Additional observations from a re-analysis of the deposited data

Results flagged for a closer look

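Single libraries far from the rest of their group were sought in 217 groups of values and found in 18. The cut flags about 1 in 20 groups by chance if they are independent and chosen beforehand. Here genes and the sums of their lists were counted separately, and some genes were named after their values were seen. The 18 therefore cannot be set against that rate. Most came from 3 libraries. In CF1, the highest CF library, JUN was at 331 CPM, FOS at 408 CPM, the stress gene GADD45B at 46.7 CPM, pyruvate carboxylase PC at 604 CPM and the globin HBB at 402 CPM, and the immediate early genes summed to 2743.9 CPM and the erythroid genes to 531.2 CPM. The same library was the lowest CF library for CHIC1 (19.2 CPM) and MANEA (37.2 CPM). In WT12, JUN was at 60.1 CPM, FOS at 158 CPM and the immediate early genes summed to 1226.5 CPM, each the highest of the non-CF libraries. In CF3, RSAD2 was at 30.7 CPM, IFIT1 at 41.7 CPM and MX1 at 155 CPM, and the interferon-stimulated genes summed to 1459.5 CPM. CF4 was the lowest CF library for CFTR (12.5 CPM), and WT16 the lowest non-CF library for SLC25A36 (102 CPM).

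The CF effect of 4 genes differed between the sets of pigs by the interaction test, later-numbered minus earlier-numbered, between sets that had been chosen on the same expression values. GPD2 differed by -1.02 log2, SLC16A7 by -0.97, NUDT4 by -0.83 and MMP11 by 0.92.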

How the results depend on the processing

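Counts of genes at an adjusted p of 0.05 were small and moved with the setting. For CF against non-CF, edgeR's 0 became 150 with DESeq2 (133 higher, 17 lower), 4 with WT alone as control, 61 with the spread estimated over all 23 libraries, and 1 without CF1 and WT12, and lay between 0 and 12 with 1 library left out (12 without CF1). Genes whose groups do not overlap, 133, became 74 with upper-quartile scaling, 712 with WT alone, 637 with HET alone and 356 without CF1 and WT12, and lay between 127 and 309 with 1 library left out. CF against WT, 7 genes, became 559 with DESeq2, 11 with RLE scaling and 31 with GC and length offsets (2 to 110 with 1 library left out). CF against HET, 0, became 14 with DESeq2 (0 to 6). HET against WT, 17, became 138 with DESeq2 (1 to 25). The difference between sets, 4, became 144 with DESeq2 and 10 with upper-quartile scaling (1 to 72). Upper-quartile scaling shifted the median gene by -0.04 and turned the split of genes at an unadjusted p under 0.05 from 1266 higher and 692 lower to 830 and 1020. In the simulation DESeq2 called 32 unchanged genes where edgeR called 5, and recovered 70% of genes changed 1.5-fold where edgeR recovered 53%. The simulated libraries had no relation with base composition and none made to stand apart. They cannot show which calls in the pigs were false. The cause of the changes with the setting was not tested.

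Directions turned in few genes. With HET alone as control, SLC1A1 was at -0.056, SLC38A4 at 0.045 and SLC12A3 at 0.033. Without CF1 and WT12, SLC1A1 was at -0.17 and SLC38A4 at 0.022. With 1 library left out, SLC1A1 ranged from -0.11 (without CF1) to 0.14, being below 0 also without HET13 and without WT12, SLC38A4 from -0.22 to 0.053 (without CF1), RSAD2 from -1.05 (without CF3) to 3.71, and IFIT1 from -0.056 (without CF3) to 1.26. No paired analysis was possible because the numbers in the labels are pig numbers that no 2 groups share. Groups of 3 to 7 pigs limit these comparisons, and genes near 3 counts per library are not measured well.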

Other observations

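The angiotensin receptor AGTR1 was at 43.3 to 64.9 CPM in CF and 35.3 to 54.8 CPM in non-CF, a log2 difference of 0.33 ± 0.12 (p = 0.0138, adjusted p = 0.382, edgeR's quasi-likelihood test). The ranges overlapped, and in the later-numbered pigs the difference was -0.23, with the opposite sign. Of 9 renin-angiotensin genes tested, 7 were higher, with a median of 0.10 (0.01 without CF5, 0.16 without WT17) against -0.14 in the later-numbered pigs. At an unadjusted p under 0.05, 1 was higher and 1 lower (22.2%, against 9.31% of all genes).

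Of 17 circadian clock genes 14 were higher in CF, with a median of 0.15. At an unadjusted p under 0.05, 3 were higher and 1 lower (23.5%, against 9.31% of all genes). The count higher at that p was 1 without WT16, WT17 or WT18 and 6 without HET15, and the median was 0.21 with WT alone as control and 0.03 with HET alone. The repressor CRY2 differed by 0.33 ± 0.13 and the activator CLOCK by 0.15 ± 0.06, whereas the repressor NR1D1 differed by -0.50 ± 0.22. In the later-numbered pigs CRY2 and NR1D1 had the same signs (0.35 and -0.66), and CLOCK was at 0.03. The times of day at which the pigs were studied are not given in the labels.

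Among genes of nephron formation, GDNF, which the progenitors release to attract the ureteric bud, was at 7.11 to 14.5 CPM in CF and 7.11 to 17.6 CPM in non-CF (-0.44 ± 0.20, p = 0.046), and ETV4, which responds to it in the bud, differed by -0.46 ± 0.18 (p = 0.0184). The whole lists, these genes included, had medians of -0.04 over 15 nephron progenitor genes and 0.01 over 13 ureteric bud genes. The medians ranged from -0.12 (without CF6) to 0.02 (without WT18) and from -0.04 (without CF1) to 0.07 (without WT12). At an unadjusted p under 0.05 the progenitor list held 1 lower gene (6.67%) and the bud list 1 higher and 1 lower (15.4%), against 9.31% of all genes. The progenitor list held 0 lower without CF2, CF3, CF4, CF5, HET14, WT12, WT16, WT17 or WT18, and the bud list 0 higher without CF4. Against WT 5 of the 15 and 4 of the 13 were above 0 (medians -0.11 and -0.07), and against HET 11 and 12 (medians 0.06 and 0.16). Of 18 endoplasmic reticulum chaperones 12 were lower, with a median of -0.14 against -0.31 in the later-numbered pigs, with 1 higher and 1 lower at an unadjusted p under 0.05. Without CF1, 14 of the chaperones were lower, 7 at that p, with a median of -0.27, without CF3 the median was -0.07, and without HET13 3 were higher at that p. Of 23 glycolysis and lactate transport genes 17 were lower, with a median of -0.15 against -0.37 in the later-numbered pigs. At an unadjusted p under 0.05 there were 2 (8.7%, against 9.31% of all genes), both higher (1 without CF1, CF4, CF5, WT12 or HET13). The glycolysis median was -0.04 without CF6. With WT libraries alone as control 11 of the 23 were above 0, with a median of -0.00, and with HET alone 7, with a median of -0.18. The chaperone medians were -0.23 and -0.04 with these controls.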
